A study of Mus musculus with 4 samples.

Results

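The genes described here are 9 that carry the proximal signal of the T cell receptor, namely Cd3d, Cd3e, Cd3g, Cd247, Lck, Fyn, Zap70, Lat, and Lcp2. These genes were measured in ILC2s, which bear no T cell receptor on the surface. They were taken by symbol from a table of 27179 genes, in which all 9 have a row. For RNA-Seq, CD45.2+Lin-CD127+KLRG1+ cells of the large intestine were sorted as ILC2s from WT C57BL/6 mice, kept in culture for 5 days with the cytokines IL-33, IL-25, IL-7, and IL-2, and given vehicle or 100 μM deoxycholic acid (DCA), a secondary bile acid made by gut bacteria. The lineage (Lin) antibodies included CD3 and CD5, so cells with these proteins on the surface were gated out. Treatment lasted 16 hours by the labels of the series, although the sources differ on this time. Mice were 6 to 14 weeks old and of either sex by one description, and C57BL/6J mice were 6 to 8 weeks old by another, with statements that differ on whether these were of both sexes or males only. The labels do not tie a library to an animal. There were 2 libraries of vehicle-treated and 2 of DCA-treated ILC2s. Nothing in the labels says that libraries of one treatment came from separate cultures, so the p-values below measure only the spread between libraries, which may be technical.

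In T cells the antigen receptor itself has no signaling tail. It sits in a complex with the CD3 γ, δ, and ε chains and the ζ chain encoded by Cd247, whose tails hold the tyrosine motifs called ITAMs. The Src family kinases LCK and FYN phosphorylate these motifs, ZAP70 binds them and is activated, and ZAP70 then phosphorylates the scaffold LAT and the adaptor SLP-76, encoded by Lcp2, on which the enzymes of calcium and Ras signaling assemble. Several of these kinases and adaptors also serve other receptors of lymphocytes.

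The libraries held 35838342 and 26564059 counts with vehicle and 32102232 and 244165712 counts with DCA, so DCA replicate 2 was by far the deepest. Where a gene had no counts, a level equal to 3 counts could not be told from 0, which in counts per 1000000 counts of the library (CPM) was 0.0820 for vehicle replicate 1, 0.115 for vehicle replicate 2, 0.0928 for DCA replicate 1, and 0.0125 for DCA replicate 2. These limits take in counting error alone, because reads of amplified cDNA that carry no molecular tags are not separate molecules. Of 9 ILC2 markers all were tested, with a summed level of 11130 to 15210 CPM per library. Most of that sum was the cytokine gene Il5, at 7719 to 12320 CPM, and the transcription factor gene Gata3 was at 599 to 839 CPM and the IL-25 receptor gene Il17rb at 31.4 to 39.0 CPM. T cell markers, some of them found in all 4 libraries, are given below.

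The 9 genes differed widely in level, and the order ran from the adaptors and ZAP70 at the top to the CD3 δ and ε chains at the bottom. Levels of different genes were compared per length, as CPM divided by the kilobases of exon of the gene (RPKM). Lcp2 was at 69.1 ± 9.31 RPKM (SD, n = 4 libraries), Zap70 at 31.7 ± 12.2 RPKM, and Lat at 24.4 ± 3.59 RPKM. The level of Lcp2 was above that of 91.2% of the 10983 tested genes with a length, that of Zap70 above 82.6%, and that of Lat above 78.9%. Fyn followed at 7.16 ± 2.46 RPKM and Cd3g at 5.29 ± 2.23 RPKM (SD, n = 4 for each), on either side of the median of 5.72 RPKM over the same genes. Cd247, at 1.02 ± 1.18 RPKM, and Lck, at 0.940 ± 1.33 RPKM, came next, and Cd3d (0.206 ± 0.161 RPKM) and Cd3e (0.138 ± 0.224 RPKM) were lowest. These low levels leaned on vehicle replicate 1, without which Cd247 was at 0.534 RPKM, Lck at 0.2835 RPKM, and Cd3e at 0.0282 RPKM. The ranges over the 4 libraries did not overlap between Lcp2 and Zap70, between Lat and Fyn, or between Cd3g and Cd247. They did overlap for the other neighbours in this order, Zap70 with Lat, Fyn with Cd3g, Cd247 with Lck, Lck with Cd3d, and Cd3d with Cd3e. The order was the same when each level was divided by the mean or by the longest transcript length instead of by all exons.

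**Figure D1:**
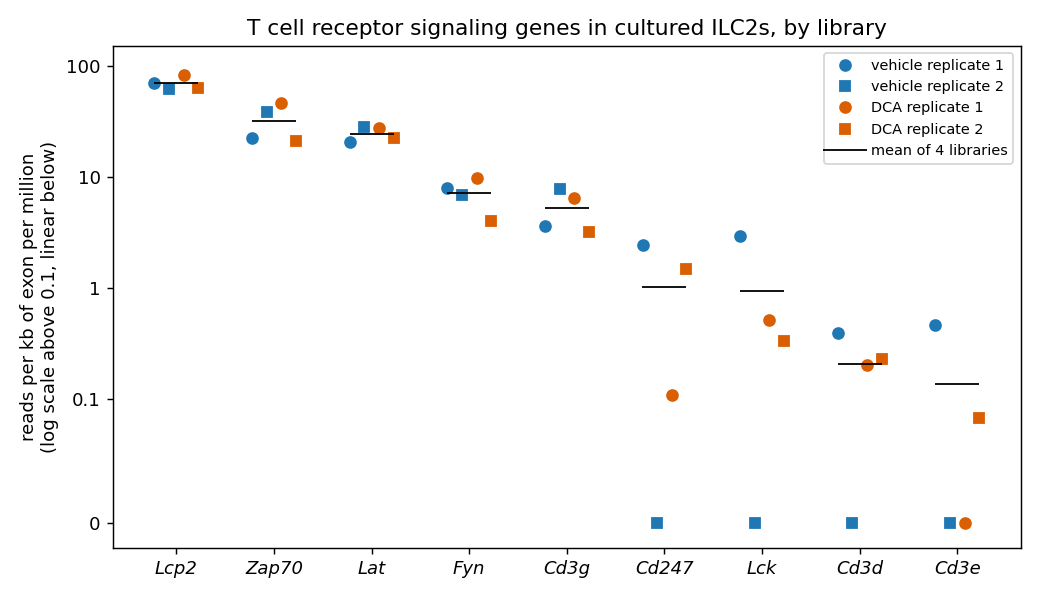
Level of the 9 genes in each library, in RPKM (y axis, logarithmic above 0.1 and linear below), with vehicle libraries in blue and DCA libraries in orange, circles for replicate 1, squares for replicate 2, and a line at the mean of the 4 libraries. Lcp2, Zap70, Lat, Fyn, and Cd3g were found in all 4 libraries, whereas Cd247, Lck, Cd3d, and Cd3e were at 0 in vehicle replicate 2.

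Of the genes for the CD3 and ζ chains, only Cd3g was found in every library. Cd3g (Entrez gene 12502, chromosome 9, 44969572 to 44980431 on GRCm38) had counts of 434 and 669 after vehicle and of 688 and 2519 after DCA, or 11.9 and 25.5 CPM against 21.3 and 10.5 CPM. The highest level was in a vehicle library and the lowest in a DCA library, and the treatments overlapped. Cd3d (Entrez gene 12500, chromosome 9, 44981786 to 44987339) had 26 and 0 counts after vehicle and 12 and 100 after DCA, which is 0.710 CPM at most. Cd3e (Entrez gene 12501, chromosome 9, 44998740 to 45009627) had 70 and 0 counts after vehicle and 0 and 83 after DCA, which is 1.91 CPM at most. Both lay under the mean of 1 CPM needed for the test. Within a library, the level of Cd3d per length was between 0% and 10.8% of that of Cd3g, and the level of Cd3e between 0% and 12.9%. The level of Cd247, described below, was between 0% and 67.8% of that of Cd3g, and was at 46.6% in DCA replicate 2.

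The 3 CD3 genes are neighbours. They span 40.1 kb in the order Cd3g, Cd3d, and Cd3e, and Cd3g and Cd3d start 1355 bases apart and are read in opposite directions. Their promoters are shown because genes so close together were at such different levels here. The 250 bases before each RefSeq start site (GRCm38.p6) are printed from 5′ to 3′ on the strand of the gene, at chr9:44980432-44980681 (minus strand) for Cd3g, chr9:44981536-44981785 (plus strand) for Cd3d, and chr9:45009612-45009861 (minus strand) for Cd3e. Capitals mark 2 motifs, searched on both strands. The core bound by Ets factors was searched as GGAAGT. The motif bound by GATA factors was searched with the letters AGATAA.
Cd3g: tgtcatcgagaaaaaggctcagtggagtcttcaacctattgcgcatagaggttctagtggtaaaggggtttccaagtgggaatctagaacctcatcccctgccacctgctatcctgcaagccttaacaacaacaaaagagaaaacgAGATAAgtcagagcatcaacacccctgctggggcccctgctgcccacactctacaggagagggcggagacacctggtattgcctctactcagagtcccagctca
Cd3d: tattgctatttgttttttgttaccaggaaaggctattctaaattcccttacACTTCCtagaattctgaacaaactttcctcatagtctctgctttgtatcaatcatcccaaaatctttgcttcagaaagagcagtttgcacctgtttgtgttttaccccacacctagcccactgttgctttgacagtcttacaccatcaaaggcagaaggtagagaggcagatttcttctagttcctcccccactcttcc
Cd3e: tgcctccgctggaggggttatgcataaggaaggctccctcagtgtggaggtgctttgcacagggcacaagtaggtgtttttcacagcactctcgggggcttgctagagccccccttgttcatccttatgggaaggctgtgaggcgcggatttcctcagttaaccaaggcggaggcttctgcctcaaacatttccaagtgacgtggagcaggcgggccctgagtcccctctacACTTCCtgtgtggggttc
The Cd3g window held 1 GATA motif and no Ets core, and the Cd3d and Cd3e windows each held 1 Ets core and no GATA motif. The Runx motif TGTGGT was in none of the 3 windows on either strand, and neither was the E box, searched for with the letters CAGCTG. Of 32851 windows of this length before RefSeq start sites, 9.99% held the GATA motif, 19.7% the Ets core, 14% the Runx motif, and 13.0% the E box. The motifs searched do not overlap one another in these 3 windows. Elsewhere in the group, the Lcp2 window held 2 GATA motifs, and the windows of Cd247, Lck, Zap70, Lat, and Fyn held none. The Ets core was in the windows of Cd247 and Lck and in a Zap70 window, but not in those of Lat, Lcp2, and Fyn. A match is a description of the sequence only, and its part in the levels was not tested.

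Cd247, which encodes the ζ chain (Entrez gene 12503, chromosome 1, 165788681 to 165877277), had 480 and 0 counts after vehicle and 19 and 1912 after DCA. Its levels, 13.1 and 0 CPM for vehicle against 0.588 and 7.94 CPM for DCA, placed one library of each treatment high and the other low. In GENCODE M21, 56.4% of the exon bases of Cd247 are also exon bases of Pou2f1 on the opposite strand. Pou2f1 had 471 and 271 counts after vehicle and 130 and 1895 after DCA. Reads from this shared stretch cannot be told apart here, so the Cd247 counts are uncertain. Fcer1g, which encodes the ITAM chain of Fc receptors, was likewise uneven, at 31.9 and 0 CPM after vehicle and 8.04 and 2.56 CPM after DCA.

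Of the kinases, Zap70 was abundant and Lck scarce. Zap70 (Entrez gene 22637, chromosome 1, 36761798 to 36782818) was at 66.5 and 114 CPM with vehicle and at 137 and 62.3 CPM with DCA. The highest and the lowest library were both DCA libraries, so the spread within DCA was wider than the distance between treatments. Fyn (Entrez gene 14360, chromosome 10, 39368855 to 39565381) was at 34.9 and 29.8 CPM with vehicle and at 43.0 and 17.3 CPM with DCA, again with both extremes in DCA libraries. Lck (Entrez gene 16818, chromosome 4, 129548344 to 129573641) had 312 and 0 counts after vehicle and 49 and 235 after DCA, or 8.53 and 0 CPM against 1.52 and 0.976 CPM. Its highest and its lowest value were both in vehicle libraries. Within a library, the level of Lck per length was between 0% and 36.4% of that of Fyn, the other Src family kinase of this group. Syk, the kinase most closely related to ZAP70, was at 22.1 and 3.09 CPM after vehicle and 0 and 2.76 CPM after DCA, so Zap70 was above Syk in each of the 4 libraries.

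The adaptors were the steadiest of the 9 genes between libraries. Lcp2 (Entrez gene 16822, chromosome 11, 34046920 to 34092295) was at 313 and 274 CPM with vehicle and at 365 and 281 CPM with DCA. Lat (Entrez gene 16797, chromosome 7, 126363824 to 126369570) was at 57.1 and 76.9 CPM with vehicle and at 75.2 and 61.2 CPM with DCA. For both genes the libraries of the treatments interleaved, and the highest of the 4 was 1.33 times the lowest for Lcp2 and 1.35 times for Lat.

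DCA against vehicle asks whether the bile acid alters RNA of these genes. No difference beyond the spread between libraries was found for any of them. Of the 9 genes, 7 passed the filter of a mean of at least 1 CPM. By edgeR's quasi-likelihood test, 0 of the 7 reached an adjusted p under 0.05, against 0% of the 11184 genes tested. At an unadjusted p under 0.05 there were 0 of the 7, against 4.27% of all genes tested. At an adjusted p under 0.05, DESeq2 and limma also called 0 of the 7. Over all genes, DESeq2 called 1.96% of the 12900 that had an adjusted p, and limma called 0 of 11184. The ranges of the treatments were apart for 0 of the 7, against 33.3% of all genes tested. The median log2 fold change of the 7 was -0.10, with 3 above 0 and 4 below, beside a median of 0.0080 and 50.7% above 0 over all genes tested.

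For Lcp2 the means were 294 ± 27.5 CPM with vehicle and 323 ± 59.6 CPM with DCA (SD, n = 2 libraries each). The log2 fold change was 0.14, with a standard error of 0.21, taken here and below from log2(CPM + 1) between libraries. For Lat the log2 fold change was 0.03 (standard error 0.26), with means of 67.0 ± 14 CPM and 68.2 ± 9.91 CPM. These 2 adaptors had the smallest standard errors of the 7. For Zap70 the means were 90.4 ± 33.8 CPM with vehicle and 99.6 ± 52.7 CPM with DCA, and the log2 fold change was 0.14 (standard error 0.68). For Cd3g they were 18.7 ± 9.67 CPM and 15.9 ± 7.64 CPM, a log2 fold change of -0.24 (standard error 0.71). For Fyn they were 32.3 ± 3.57 CPM and 30.2 ± 18.1 CPM, a log2 fold change of -0.10 (standard error 0.64). For each of these genes, Lcp2 and Lat included, the standard error was larger than the log2 fold change in size. It leaves room for a change of either sign. Cd247, at 6.56 ± 9.27 CPM with vehicle and 4.27 ± 5.20 CPM with DCA, had a log2 fold change of -0.62 (standard error 2.28). Lck, at 4.26 ± 6.03 CPM and 1.25 ± 0.381 CPM, had one of -1.78 (standard error 1.64). These fold changes are edgeR's, and on the log2(CPM + 1) scale of the standard errors the differences were 0.0043 for Cd247 and -0.47 for Lck. The Lck value rests on vehicle replicate 1, since the other vehicle library was at 0 and no value could be fitted without replicate 1, where Lck fell under the filter. The unadjusted p of the 7 genes lay between 0.507 for Lck and 0.939 for Lat, and the adjusted p was 0.999 for all 7 (edgeR). A two-sided exact permutation test over libraries gave p = 0.667 for Cd3g and Lcp2 and p = 1 for the others, where the smallest p that 2 libraries against 2 allow is 0.333.

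The direction turned for 6 of the 7 genes when one library or another was left out. Leaving out vehicle replicate 2 gave Cd3g a log2 fold change of 0.42, leaving out DCA replicate 2 gave 0.19, and leaving out DCA replicate 1 gave -0.85. For Zap70 the value was -0.55 without DCA replicate 1 but 0.60 without the other DCA library, and it was -0.23 without vehicle replicate 1. For Fyn, leaving out DCA replicate 1 gave -0.90 and leaving out DCA replicate 2 gave 0.41. For Lcp2 it was -0.068 without DCA replicate 1, and for Lat -0.20 without vehicle replicate 1 and -0.14 without DCA replicate 1. For Cd247, leaving out DCA replicate 2 gave -3.47 and leaving out DCA replicate 1 gave 0.29. Without vehicle replicate 1 its fitted value was 11.7, which is no bound because the remaining vehicle library was at 0. Only Lck kept its sign in the 3 fits that could be made, at -2.78 without vehicle replicate 2, -2.11 without DCA replicate 1, and -1.49 without DCA replicate 2.

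**Figure D2:**
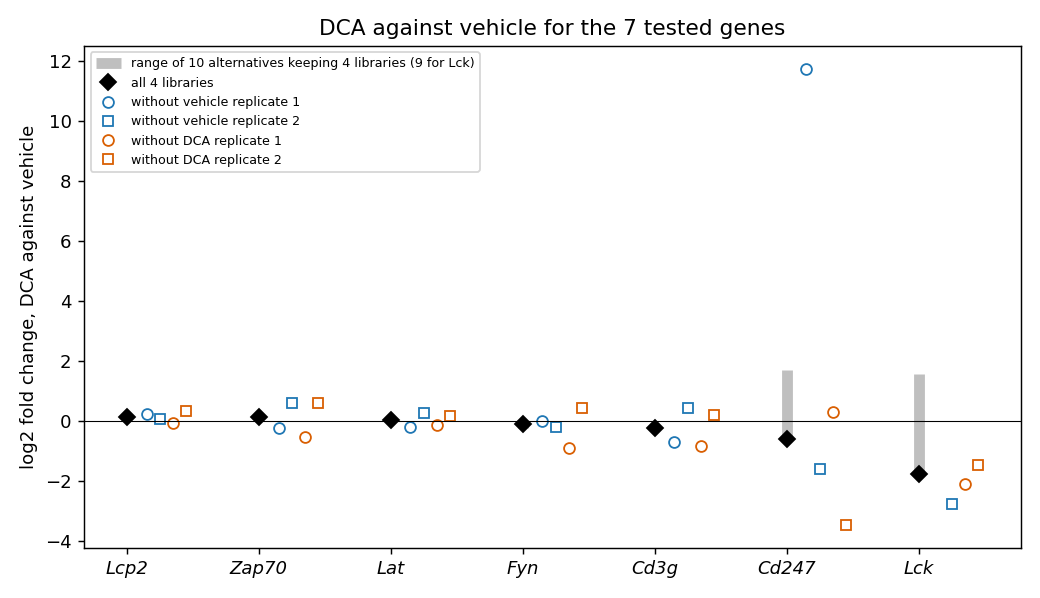
Log2 fold change of DCA against vehicle (y axis) for the 7 tested genes, with all 4 libraries as black diamonds, the range over alternatives that kept all libraries as grey bars, and the fits without 1 library as open symbols, blue for a vehicle and orange for a DCA library. The diamonds lie between -1.78 and 0.14, and the open symbols of every gene but Lck fall on both sides of 0.

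The uneven genes shared 1 library. Vehicle replicate 2 was at 0 counts for 4 of the 9 genes (Cd247, Lck, Cd3d, and Cd3e). Of these, only Cd247 and Lck passed the filter, so 2 of the 7 tested genes were at 0 in that library. Cd3e was also at 0 in DCA replicate 1. Fcer1g was at 0 in vehicle replicate 2 as well. Of the 11184 genes tested, 635 were at 0 in vehicle replicate 2, 429 in vehicle replicate 1, 351 in DCA replicate 1, and 97 in DCA replicate 2. Genes at 0 in 1 library and at 100 counts or more in another, a level chosen after values were seen, made up 2 of the 7 tested genes here (Cd247 and Lck) and 9.73% of all genes tested. Vehicle replicate 1 held the highest level of Cd247, Lck, Cd3d, and Cd3e, and vehicle replicate 2 the highest level of Cd3g.

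**Figure D3:**
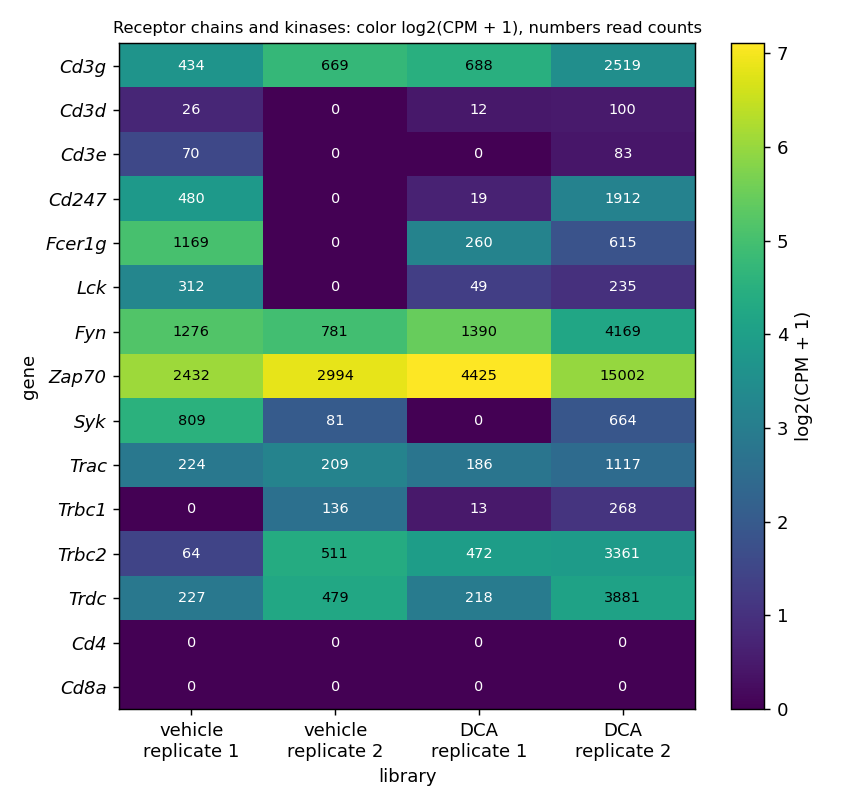
Read counts (numbers) and log2(CPM + 1) (color) of ITAM-bearing chains, kinases, T cell receptor constant chains, and coreceptors (rows) in each library (columns). Cd3g, Fyn, Zap70, Trac, Trbc2, and Trdc had counts in all 4 libraries, and Cd4 and Cd8a had 0 in each.

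T cells, which the gate was set to remove, carry all 9 genes, and their markers were low but not absent. Of 9 T cell markers, 5 were above 3 counts in some library and 3 were at 0 in every library (Cd4, Cd8a, and Cd40lg). The summed level of the 9 was 7.87 and 33.8 CPM after vehicle and 20.8 and 19.99 CPM after DCA. Apart from receptor constant regions, Cd5 had 28 counts and Cd8b1 2 counts in vehicle replicate 2 alone. Foxp3 had 65 counts in DCA replicate 2 alone. Trac, the constant region of the α chain, was at 6.12 and 7.98 CPM with vehicle and at 5.75 and 4.64 CPM with DCA. Trbc2, of the β chain, was at 1.75 and 19.5 CPM with vehicle and at 14.6 and 13.97 CPM with DCA, and Trbc1 was at 0 and 5.19 CPM with vehicle and at 0.402 and 1.11 CPM with DCA. Counts of these near-identical β constant regions may have been split between them. Trdc, of the δ chain, was at 6.203 and 18.3 CPM with vehicle and at 6.74 and 16.1 CPM with DCA. The 4 γδ T cell markers (Trdc, Trgc1, Trgc2, and Trgc4) summed to 13.9 and 105 CPM after vehicle and 62.4 and 16.1 CPM after DCA, and none of them was at 0 throughout. For the γ chain genes, which are close copies, Trgc1 was at 7.65 and 72.6 CPM with vehicle and at 2.999 and 0 CPM with DCA, Trgc2 had 0 and 4 counts after vehicle and 0 after DCA, and Trgc4 was at 0 and 14.1 CPM with vehicle and at 52.7 and 0 CPM with DCA. Vehicle replicate 2 and DCA replicate 1 held the most Cd3g and Zap70 and had the highest sums of both marker lists. The T cell sums of DCA replicates 1 and 2 were close, at 20.8 and 19.99 CPM, and Zap70 was at 137 and 62.3 CPM in these 2 libraries. Cd3e was at 0 in vehicle replicate 2 and DCA replicate 1. The part of these markers in the levels of the 9 genes was not tested, and in a bulk library fewer cells of a type and less RNA per cell cannot be told apart.

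The other genes of the pathway likewise held no call in the main test. Of 65 further genes in a list of receptor chains, kinases, adaptors, effectors, and negative regulators, 53 were tested, and edgeR gave 0 of them an adjusted p under 0.05. At an unadjusted p under 0.05 there were 2 of the 53, both higher with DCA, against 4.27% of all genes tested. Their median log2 fold change was -0.053, with 25 above 0 and 28 below. By role, the medians were -0.097 for 7 receptor chains and coreceptors, -1.04 for 5 ITAM partners and kinases, 0.099 for 12 adaptors, 0.031 for 16 effectors, and 0.10 for 13 negative regulators. The treatments did not overlap for 11 genes that were higher and 9 that were lower with DCA, against 18.6% and 14.7% of all genes tested.

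The 2 genes with an unadjusted p under 0.05 were Sit1 and Dgka. Sit1, an adaptor that restrains T cell receptor signaling, had 1 and 0 counts after vehicle and 299 and 316 after DCA, or 9.25 and 1.31 CPM with DCA. Against the 1 count of the pooled vehicle libraries, the ratio was 581 for DCA replicate 1 (95% exact interval of counting error, 103 to 23010) and 82.4 for DCA replicate 2 (14.7 to 3266). These intervals leave out the spread between libraries, and reads of amplified cDNA are not separate molecules. Of all genes tested, 9.73% were at 0 in at least 1 library and at 100 counts or more in another. edgeR gave Sit1 an unadjusted p of 0.0175 that adjusted to 0.999, whereas the adjusted p was 0.00753 with DESeq2. Dgka, a kinase that removes the second messenger diacylglycerol, was at 4.15 and 19.2 CPM with vehicle and at 52.0 and 38.9 CPM with DCA, so the treatments did not overlap. Its log2 fold change was 1.96 (standard error 1.01), the edgeR p was 0.0383 unadjusted and 0.999 adjusted, and the log2 fold change was 1.22 without vehicle replicate 1 and 3.45 without vehicle replicate 2. Neither gene passed the threshold over all genes tested in the main test. The costimulatory receptor gene Cd28 was at 67.4 and 90.1 CPM with vehicle and at 150 and 87.3 CPM with DCA, and the treatments overlapped.

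**Figure D4:**
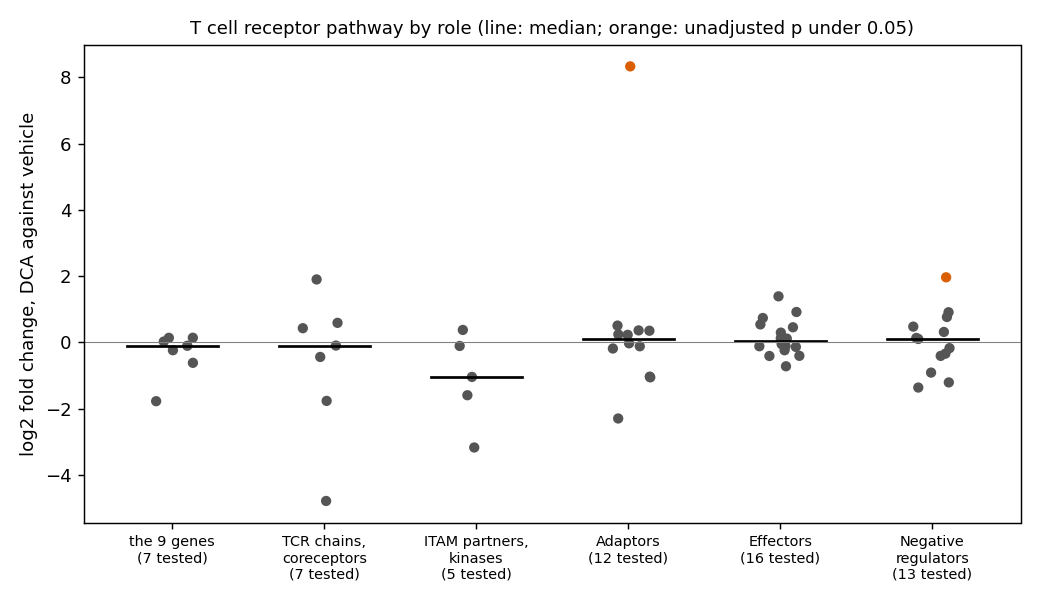
Log2 fold change of DCA against vehicle (y axis) for the 7 tested genes of the group of 9 and for 53 tested genes of the wider pathway by role (x axis), each point a gene, with a line at the median and orange for an unadjusted p under 0.05. The medians lie between -1.04 and 0.10, and the 2 orange points are Sit1 and Dgka.

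The average profile of the 7 tested genes, as log2(CPM + 1) centred on each gene's own mean over the 4 libraries, stood at 0.42 and -0.33 in the vehicle libraries and 0.086 and -0.18 in the DCA libraries. Of the 53 tested pathway genes, the 5 nearest to it by root mean square distance over 4 libraries were Grb2, Nfatc2, Sos1, Dok2, and Nfatc3, at distances of 0.0871 to 0.193. The distances of the 7 genes from their own average ran from 0.230 for Lcp2 to 1.46 for Cd247. Lck, at 0.905, was second farthest, and both Cd247 and Lck were at 0 in vehicle replicate 2. Like the average, Cd247, Lck, Lcp2, and Fyn were higher in vehicle replicate 1 than in vehicle replicate 2. Cd3g, Zap70, and Lat went the other way, so a gene near the average need not resemble each of the 7.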

How the data were processed

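RNA was amplified by the authors with the SMART-Seq HT kit and made into Nextera XT libraries for paired-end reads, which, per the labels and the paper's methods, went through Cutadapt 1.9 and then HISAT2 2.2.1 on mm10. The labels give 16 hours of treatment and the methods 24 hours. The deposited values are whole-number read counts per Entrez gene, under a table name that says FPKM. The counting tool, its annotation, and its strand setting are not given in the sources used here. Of 27179 rows, 1275 lack a symbol and were kept under their identifier.

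Counts were tested with edgeR 4.0.16 in R 4.3.3 by the two-sided quasi-likelihood test after TMM scaling. Genes under a mean of 1 CPM were left out, and p-values were adjusted over the other 11184 by Benjamini-Hochberg. CPM values carry the TMM factors. Positions and exon lengths are from GENCODE M21 (GRCm38), and promoters from RefSeq (GRCm38.p6), in which each of the 9 genes matched by symbol. In simulated counts the test found the changed genes where libraries of a group differed little and missed them where they differed widely. The 9 genes and the gene lists were chosen with earlier results of these data known. Named pathway genes are those with an adjusted p under 0.05 or an unadjusted p under 0.05, with the receptor constant chains, Fcer1g, and Syk given whatever their p, and Cd28 added after its values were seen. Lists of markers of macrophages and monocytes, NK cells, mast cells and basophils, and epithelial cells were also summed. Some genes of these rules and lists are not reported here. Alternatives were scaling by total counts or by median of ratios, no filter, a mean of at least 5 CPM, filterByExpr, DESeq2 1.42.0, limma 3.58.1 with pseudocounts of 1 and 0.1, the replicate number as a block, DCA replicate 2 thinned to 31503637 counts, and leaving out each library.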

Additional observations from a re-analysis of the deposited data

How the results depend on the processing

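With all 4 libraries, the log2 fold changes of Cd3g, Zap70, Lcp2, and Fyn kept their direction in the 10 alternatives run. Cd247 changed from -0.62 to 0.0043 and 1.03 with limma at pseudocounts of 1 and 0.1, Lck from -1.78 to 0.51 with limma at 0.1, and Lat from 0.03 to -0.0022 with median-of-ratios scaling and -0.0033 with DESeq2. The cause was not tested. With the replicate block, Cd247 was at 1.69 and Lck at 1.54, and 0 of the 11184 genes had an adjusted p under 0.05. The labels do not say that a replicate number marks a shared culture. Across 11184 genes, the deviations from the treatment means correlated at 0.0197 between libraries of the same number. With 2 libraries per treatment, this value cannot tell whether such libraries shared a culture or an animal. In the fits without 1 library, which assume that the lone library varies like the other treatment's, values ran from -0.85 to 0.42 for Cd3g, from -3.47 to 11.7 for Cd247, from -2.78 to -1.49 for Lck, from -0.55 to 0.60 for Zap70, from -0.20 to 0.26 for Lat, from -0.068 to 0.32 for Lcp2, and from -0.90 to 0.41 for Fyn. None of the 7 genes had an adjusted p under 0.05 in any fit run, and Cd247 had the smallest, 0.297, without vehicle replicate 1.

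Genes with an adjusted p under 0.05, 0 at first, numbered 36 without a filter, 253 with DESeq2, and 0 to 20 in the fits without 1 library, where 20 were called without vehicle replicate 1. Genes with an unadjusted p under 0.05, 478 at first, numbered 847 without a filter, 1242 with DESeq2, 1497 and 1231 without vehicle replicates 1 and 2, and 106 and 259 without DCA replicates 1 and 2. Of the pathway list, 1 gene was called without a filter (Trgc1, log2 fold change -4.79, adjusted p 7.07e-06) and 1 with DESeq2 (Sit1, 8.38), against 0 at first, and 2 genes with an unadjusted p under 0.05 became 5 without a filter, 4 with DESeq2, 1 with a mean of at least 5 CPM, and 1 to 9 without 1 library. For Trgc1, the vehicle libraries stood at 7.65 and 72.6 CPM and the DCA libraries at 2.999 and 0 CPM. Its unadjusted p was 0.0920 in the main edgeR test. Cd3d and Cd3e were tested only without a filter, with filterByExpr, and with DESeq2, with a lowest unadjusted p of 0.445 (Cd3e, filterByExpr). Levels per length rose with the mean transcript length, to 182 RPKM for Lcp2 and 13.1 RPKM for Cd3g, with the order of the genes unchanged. A count of 0 in vehicle replicate 2 allows up to 0.115 CPM, which is below the levels of Cd247, Lck, Cd3d, and Cd3e in vehicle replicate 1.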

Other observations

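An ITAM-bearing chain of the B cell receptor was also found, almost without its partner. Cd79b, which with Cd79a forms the signaling part of the B cell receptor, was at 55.1 and 47.2 CPM with vehicle and at 37.4 and 44.5 CPM with DCA. Cd79a had 10 counts in DCA replicate 1 and 0 in the other libraries, Pax5 was at 0 in each, and Ms4a1 had at most 2 counts. Cd79b was singled out after its values were seen. The marker sum of macrophages and monocytes was 24.5 and 23.97 CPM after vehicle and 7.30 and 10.2 CPM after DCA, with Csf1r and Cd14 at 0 throughout. Nearly all of it was Cd68, a lysosomal membrane protein gene, whose log2 fold change was -1.47 (unadjusted p 0.0381, adjusted p 0.999, edgeR). The marker sums of other cell types were 0 to 1.42 CPM for NK cells (Ncr1, Klrb1c, and Klrk1 at 0 throughout), 0.349 to 4.70 CPM for mast cells and basophils (Mcpt1, Mcpt2, and Fcer1a at 0 throughout), and 7.73 to 13.5 CPM for epithelial cells.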
